A study of Caenorhabditis elegans with 12 samples.

Results

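Whole-lysate (input) RNA was compared between a worm strain that expresses tagged LIN41 and a control strain that expresses tagged SART-3, before any immunoprecipitation. The comparison took all genes with at least 10 counts in at least 3 of the 6 input libraries, which were 12851 of the 20182 genes counted. It shows how far whole-worm mRNA levels of the strains already differed in the lysates that went into the anti-FLAG immunoprecipitations (IPs). Of the tested genes, 6 passed only through the 3 LIN41 inputs and 7 only through the 3 SART-3 inputs, and 10471 had 10 counts in all 6 libraries.

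Both strains carried him-5(e1490), an allele that raises the share of males. The LIN41 strain also carried lin-41(n2914) and the transgene xeSi197, in which the lin-41 promoter and the lin-41 3′ UTR flank a FLAG- and GFP-tagged lin-41. The control strain, for which no lin-41 allele is given, carried the transgene xeSi55, in which the dpy-30 promoter, which is active in most cells, drives a tagged sart-3 with the xrn-2 3′ UTR. The worms were whole, semi-synchronous L3/L4-stage populations, grown for about 30 hours at 25 °C. Each strain is 1 line, so the transgene, the lin-41 allele and anything else in the genetic background cannot be told apart. There were 3 LIN41 inputs and 3 SART-3 inputs, which the study describes as independent biological replicates, with replicate numbers shared between the strains.

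LIN41 is an RNA-binding protein of the heterochronic pathway, the set of regulators that times larval development in C. elegans. The microRNA let-7 shuts LIN41 down late in larval life, and the epidermis then takes on its adult character and makes an adult cuticle from its own set of collagens. Over the same larval stages the germline turns to making sperm, and the major sperm proteins (msp), which move the crawling sperm, and many small sperm-specific proteins are then made. SART-3 is a nuclear protein of pre-mRNA splicing.

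The input libraries held between 859814 and 2024430 counts. The LIN41 input was the deeper library in replicate 1, at 1.59 times the total of its SART-3 partner, and the shallower one in replicates 2 and 3, at 0.635 and 0.709 times. At these depths 3 counts correspond to 1.5 to 3.64 CPM (counts scaled to a library total of 1000000), and a gene at that level was barely measurable. The inputs of replicate 1 were each other's nearest library, and those of replicates 2 and 3 were not. LIN41 input 1 had a Spearman correlation across genes of 0.961 with SART-3 input 1 and of 0.782 with LIN41 input 3. LIN41 input 2 was nearer to SART-3 input 3 (0.956) than to its own partner SART-3 input 2 (0.946), LIN41 input 3 was nearer to LIN41 input 2 (0.955) than to SART-3 input 3 (0.948), and SART-3 inputs 2 and 3 were nearest to each other (0.965).

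With a term for replicate number, edgeR's quasi-likelihood test called 2 genes higher in the LIN41 input and none lower, at a Benjamini-Hochberg adjusted p under 0.05. These are 0.0156% and 0% of the genes tested. At an unadjusted p under 0.05, 867 genes were higher (6.75%) and 280 lower (2.18%). The likelihood ratio test on the same counts called 318 higher and 31 lower, DESeq2 20 and 2, limma-voom none in either direction. The count of calls thus depended on how the fit treats the spread between replicates, and the values of each library are given below for that reason.

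The 2 genes called were rol-1, named after the rolling movement of its mutants, and col-138, which codes for a cuticle collagen. In replicates 1, 2 and 3, rol-1 (chromosome II) was at 23.5, 120.0 and 441 CPM in the LIN41 inputs and at 7.23, 20.9 and 98.8 CPM in the SART-3 inputs. The LIN41 input was higher in every replicate, but the groups overlapped, because rol-1 was lowest in replicate 1 and highest in replicate 3 in both strains. The fitted log2 difference of rol-1 was 2.21 (SE 0.18, n = 3 replicates, adjusted p = 0.0243). For col-138 (chromosome IV), the levels were 55.4, 173 and 435 CPM in the LIN41 inputs and 20.9, 40.5 and 140 CPM in the SART-3 inputs. It had the same order of replicates, and its fitted log2 difference was 1.73 (SE 0.17, adjusted p = 0.0477). Neither call held without replicate 2 (adjusted p = 0.0689 for rol-1 and 0.121 for col-138), or without the replicate term, where the adjusted p was 1 for both. Both values stayed positive there.

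**Figure D1:**
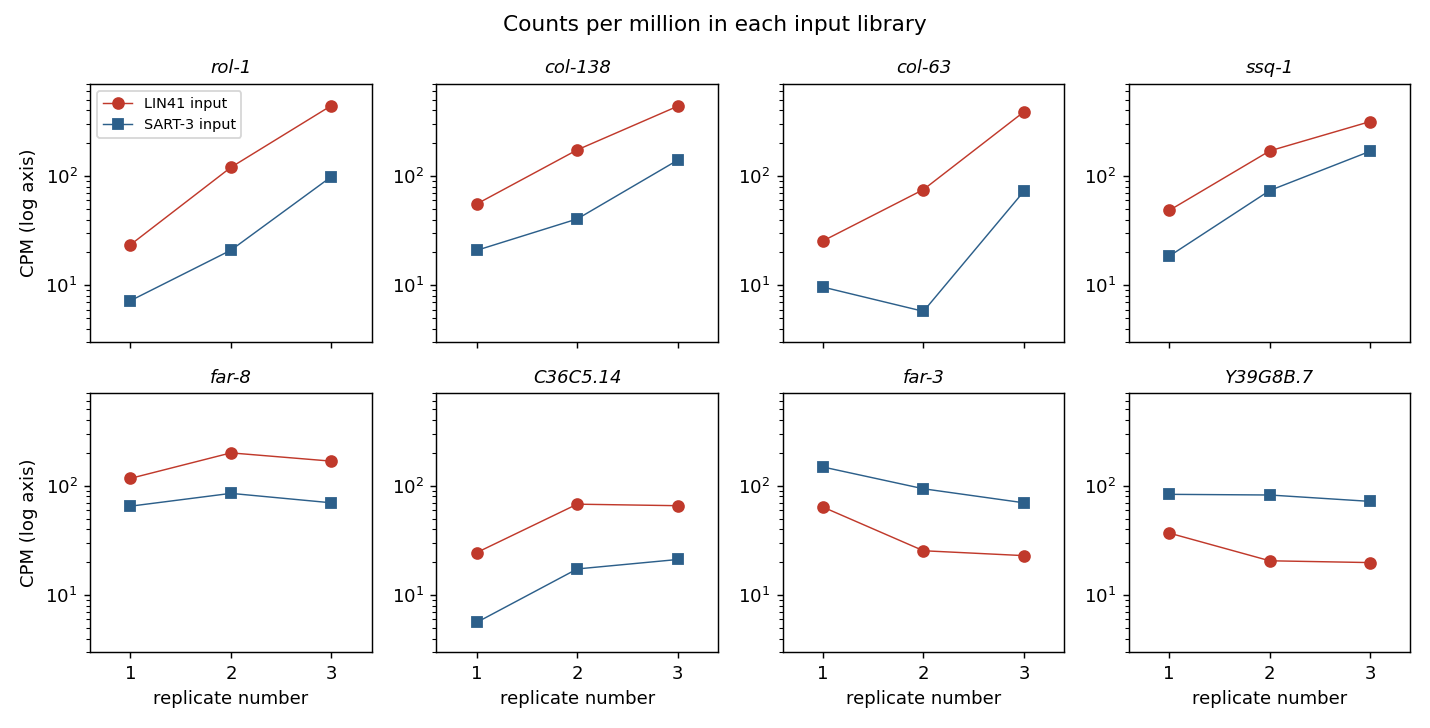
CPM (log axis) of 8 genes in the 6 input libraries, by replicate number, with the LIN41 inputs as circles and the SART-3 inputs as squares; lines only join libraries of a strain. rol-1, col-138, col-63 and ssq-1 were highest in replicate 3 in both strains, whereas far-8 and C36C5.14 were higher, and far-3 and Y39G8B.7 lower, in the LIN41 inputs with no overlap of the groups.

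The next 10 genes by p-value among those higher in all 3 replicates had adjusted p from 0.0753 to 0.0798 and did not pass. Among them, col-63, col-175 and col-38 code for cuticle collagens. col-63 was at 25.5, 75.1 and 387 CPM in the LIN41 inputs and at 9.64, 5.78 and 72.7 CPM in the SART-3 inputs (log2 2.48, SE 0.30). col-175 was at 37.4, 133 and 348 CPM against 12.8, 15.2 and 104.4 CPM (log2 2.08, SE 0.27). col-38 was at 87.4, 273 and 462 CPM against 44.2, 79.5 and 197 CPM (log2 1.34, SE 0.18). As for the called genes, replicate 3 was the highest of the replicates in both strains for each of these collagens.

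Replicate 3 was likewise the highest in both strains for 3 further genes of this set, which have no role given here, and for ssq-1. WBGene00000686, an identifier with no symbol in the reference used, was at 91.8, 211 and 414 CPM in the LIN41 inputs and at 31.3, 40.5 and 157 CPM in the SART-3 inputs (log2 1.74, SE 0.20). Y47G6A.15 was at 18.5, 95.8 and 226 CPM against 7.23, 15.2 and 72.0 CPM (log2 1.91, SE 0.24). E01G4.6 was at 112.3, 199 and 420 CPM against 49, 44.1 and 166 CPM (log2 1.54, SE 0.20). ssq-1, of a family of sperm-specific genes, was at 48.4, 170 and 315 CPM against 18.5, 73.7 and 169 CPM (log2 1.11, SE 0.15). Its family members ssq-2, ssq-3 and ssq-4 resemble one another in sequence, so reads may have been shared among them.

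The remaining genes of the set separated the strains in every library. far-8, which codes for a fatty acid and retinol binding protein, was at 117, 200 and 168 CPM in the LIN41 inputs and at 65.0, 85.2 and 69.8 CPM in the SART-3 inputs (log2 1.12, SE 0.15). R11D1.3 was at 24, 46 and 28.2 CPM against 0.803, 6.50 and 4.23 CPM (log2 3.09, SE 0.39), the SART-3 values being 1, 9 and 6 counts, so that it passed the count minimum through the LIN41 inputs alone. C36C5.14 was at 24.5, 67.9 and 65.7 CPM against 5.62, 17.3 and 21.2 CPM (log2 1.86, SE 0.24). Its lowest LIN41 input was above its highest SART-3 input. The groups did not overlap, with the LIN41 inputs higher, for 270 genes, or 2.1% of those tested, and with the LIN41 inputs lower for 305 genes, or 2.37%.

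On the lower side, the 12 genes of lowest p included a second member of the far family. far-3 was at 63.9, 25.4 and 23 CPM in the LIN41 inputs and at 149, 93.9 and 69.8 CPM in the SART-3 inputs (log2 −1.50, SE 0.18, adjusted p = 0.0753). It is the opposite of far-8, and the groups did not overlap. Of the other family members tested, chosen here after values were seen, far-1, far-2, far-5, far-6 and far-7 had log2 differences between −0.26 and 0.24, with adjusted p from 0.779 to 0.955. Thus only far-8 and far-3 among these 7 genes had groups that did not overlap.

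Y39G8B.7 was at 36.9, 20.6 and 19.8 CPM in the LIN41 inputs and at 83.5, 82.4 and 72.0 CPM in the SART-3 inputs (log2 −1.60, SE 0.22, adjusted p = 0.0798). fbxa-24, which codes for an F-box protein, was at 23, 14.5 and 16.7 CPM against 58.6, 55.6 and 41.6 CPM (log2 −1.50, SE 0.23, adjusted p = 0.0956). F11E6.11 was at 8.49, 8.48 and 5.22 CPM against 24.1, 27.4 and 21.2 CPM (log2 −1.68, SE 0.30, adjusted p = 0.147). In each of these 3 genes all LIN41 inputs were below all SART-3 inputs, and the level varied less between replicates of a strain than between the strains.

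The groups also did not overlap for C50F7.5 (log2 −0.82), K09F6.10 (log2 −1.23), C16E9.1 (log2 −1.35), Y41D4A.1 (log2 −1.77) and F42A8.1 (log2 −1.07). They overlapped for scl-2, of the SCP-like extracellular proteins (log2 −0.78), for lys-7, a lysozyme gene of the defence against bacteria (log2 −0.68), and for R10D12.1 (log2 −0.80). Adjusted p of these 8 genes ranged from 0.168 to 0.201, and all were lower in each replicate. lys-7 was at 193, 104.2 and 118 CPM in the LIN41 inputs and at 283, 191 and 183 CPM in the SART-3 inputs.

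The genes of the adult cuticle were the gene group with the highest median. Of 8 collagens listed as adult-specific, 6 were tested, none passed, and 5 were higher in all 3 replicates, where 16.3% of all tested genes were. The 5 were col-63, col-38, bli-2, col-49 and bli-1, the last 3 named here after their values were seen. bli-1 and bli-2 are needed for the struts of the adult cuticle, and their loss blisters it. bli-2 was at 82.9, 214 and 378 CPM in the LIN41 inputs and at 46.6, 69.3 and 171 CPM in the SART-3 inputs (log2 1.21, SE 0.17). bli-1 was at 53.4, 114 and 226 CPM against 13.7, 28.9 and 132 CPM (log2 1.41, SE 0.25), and col-49 was at 69.4, 179 and 416 CPM against 49, 52 and 126 CPM (log2 1.39, SE 0.24). The median log2 difference of the 6 was 0.89, 1.76 and 1.47 in replicates 1, 2 and 3, beside 0.04, 0.01 and −0.01 over all tested genes. The 6 summed to 321, 869 and 1886 CPM in the LIN41 inputs and to 173, 245 and 702 CPM in the SART-3 inputs.

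col-19, a collagen often used to mark adult epidermis, was near the limit of detection. It was at 2.50, 13.3 and 15.7 CPM in the LIN41 inputs and at 9.64, 9.39 and 3.53 CPM in the SART-3 inputs (log2 0.30, SE 0.66). It was lower in the LIN41 input in replicate 1 and higher in replicates 2 and 3. The remaining adult-specific collagens, col-7 and col-62, had 0 counts in all 6 inputs, where 3 counts are 1.5 to 3.64 CPM by library. Whether reads could be assigned to these genes alone was not tested, so the 0 counts set no firm upper limit.

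Over the wider cuticle collagen family, which codes for the cuticles of all stages, 135 of 174 listed genes were tested. The list does not include rol-1. Of its members 1 was called higher (col-138), and 28 were higher and 9 lower in all 3 replicates, where 16.3% and 13.1% of all tested genes were. The family was lower in the LIN41 input in replicate 1 (median −0.29) and higher in replicates 2 and 3 (0.51 and 0.46). In replicate 1, 5 of the 6 adult-specific members were higher, beside 42 of 135 in the family that includes them.

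Sperm genes were higher in the LIN41 input in every replicate. Of 54 listed sperm genes other than msp, 35 were tested and none passed, but 32 were higher in all 3 replicates and none was lower in all 3. The median log2 difference was 1.23, 0.99 and 0.72 in replicates 1, 2 and 3. All 54 listed genes together, tested or not, had 1114, 2188 and 3739 CPM in the LIN41 inputs. In the SART-3 inputs they had 528, 1149 and 2318 CPM. The sum in SART-3 input 3 was thus above those in LIN41 inputs 1 and 2. ssq-2 was at 45.4, 188 and 343 CPM against 14.4, 82.4 and 188 CPM (log2 1.14, SE 0.17, adjusted p = 0.0923). gsp-4, a protein phosphatase gene of sperm, was at 40.4, 82.4 and 145 CPM against 17.7, 37.6 and 92.4 CPM (log2 0.94, SE 0.18), and spe-6, a kinase gene needed for sperm formation, was at 36.4, 48.5 and 88.7 CPM against 20.9, 30.3 and 43.8 CPM (log2 0.85, SE 0.19). The 3 exceptions were spe-41, swm-1 and spe-44, which like gsp-4 and spe-6 were named after their values were seen. Of these, spe-44, a transcription factor gene of early sperm development, was at 33.4, 23 and 18.8 CPM against 16.9, 26.7 and 30.3 CPM (log2 0.07, SE 0.34).

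The msp genes, whose copies are nearly identical, had low counts. Several of them, such as msp-77, msp-19 and msp-56, had 0 counts in every input. Whether reads of such copies were split among them or left out of the counts was not tested. The low counts therefore do not show that msp mRNA was scarce. Of 30 listed, 7 were tested and all 7 of these were higher in all 3 replicates, none passing the test. All 30 listed genes together, tested or not, had 39.9, 156 and 269 CPM in the LIN41 inputs. In the SART-3 inputs they had 16.9, 58.5 and 140 CPM. msp-142 (log2 1.17, SE 0.30) and msp-64 (log2 0.96, SE 0.28) had the lowest p-values. In whole worms, fewer cells of a type and less RNA per cell cannot be told apart, so these sums do not say whether the strains differed in the number of sperm or in the RNA each held.

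Oocyte and eggshell genes did not share this pattern: of 26 tested, 8 were higher and 1 lower in all 3 replicates, with medians of 0.28, −0.15 and 0.06. The shares over all tested genes were 16.3% higher and 13.1% lower. cbd-1, an eggshell gene, had a log2 difference of 0.27 (SE 0.19), and lin-41 is in this list too. The yolk protein genes, which mark adult hermaphrodites, were near the limit of detection. vit-1 (log2 0.55, SE 0.36) and vit-6 (log2 0.08, SE 0.63) were tested. All 6 listed yolk protein genes together summed to 16.5 to 58.4 CPM in the 6 libraries. vit-2, vit-3, vit-4 and vit-5 had between 0 and 18 counts in any input. Genes of male development were tested for 11 of 20, and none of them was higher or lower in all 3 replicates. mab-9, a T-box gene of the male tail, had a log2 difference of −0.34 (SE 0.28).

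**Figure D2:**
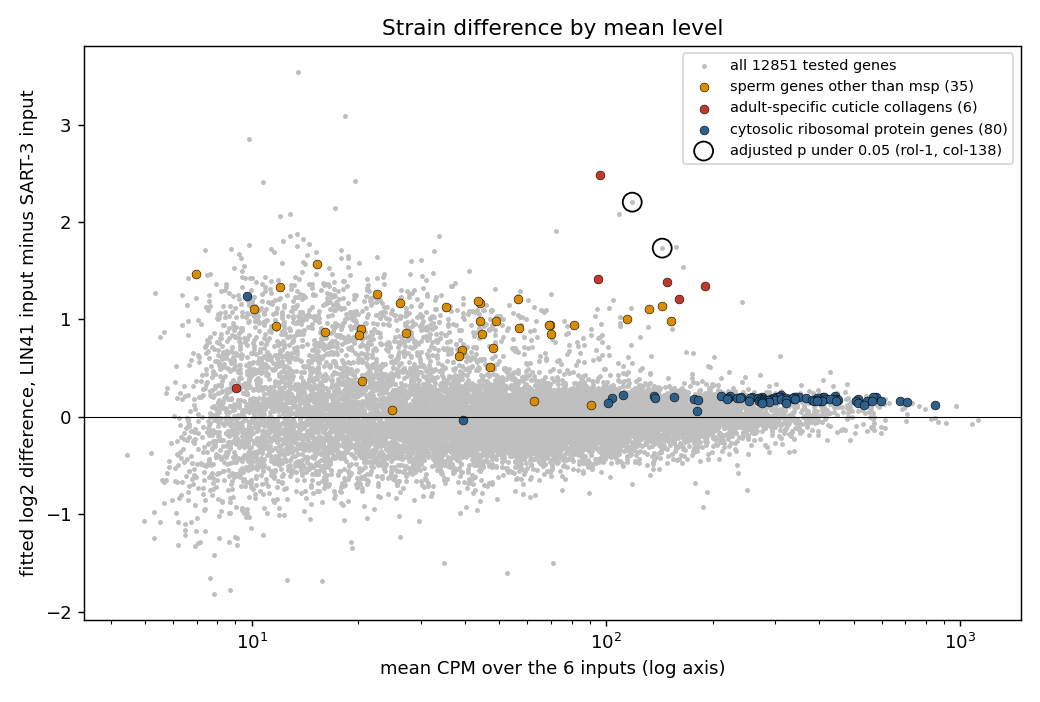
Fitted log2 difference (LIN41 input minus SART-3 input) of each tested gene against its mean CPM over the 6 inputs (log axis), with 3 gene lists in colour and rings around the 2 called genes. Most sperm genes and 5 of 6 adult-specific collagens lie above 0.5, and the ribosomal protein genes form a narrow band near 0.2.

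Genes with a much higher level in replicate 3 than in replicate 1 were mostly higher in the LIN41 input. For 322 genes the level, averaged over the strains, was at least 2 log2 units higher in replicate 3 than in replicate 1. Of these, 305 (94.7%) were higher in the LIN41 input in all 3 replicates, and their median fitted log2 difference was 1.04. Of the 821 genes with a shift of 1 to 2, 67.2% were higher in all 3 replicates, and of the 5321 genes with a shift of 0 to 1, 15.8% were. Of the 2095 genes higher in all 3 replicates, 843 had a shift of 0 to 1, and 351 one of −1 to 0, so many of them had no large shift. On the lower side, 20.4% of the 5210 genes with a shift of −1 to 0 were lower in the LIN41 input in all 3 replicates, 19.9% of the 1060 genes with one of −2 to −1, and 15.4% of the 117 genes at least 2 log2 units lower in replicate 3, where 13.1% of all tested genes were. The shift and the strain difference come from the same libraries, so they are not independent measurements. Among the listed groups, 19 of 35 sperm genes, 6 of 7 msp genes and 4 of 6 adult-specific collagens had a shift of at least 2, and 1 of 80 ribosomal protein genes did.

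Differences of at least 2-fold in each of the 3 replicates, a rule chosen after values were seen, were found for 50 genes higher (0.389%) and 8 genes lower (0.0623%) in the LIN41 input. Of the 50, 44 had a shift of over 1 log2 unit between replicates 1 and 3, where 8.89% of all tested genes did, and 9 had groups that did not overlap. Of the 8, 5 had a shift within 1 log2 unit, where 81.9% of all tested genes did, and 7 had groups that did not overlap. The 6 higher genes with a shift within 1 were K09C6.9, R11D1.3, Y71G12B.18, K02B12.9, scl-6 and dhs-15, all with groups that did not overlap. For the first 4 of these, no SART-3 input reached 10 counts, so they entered the comparison only through the LIN41 inputs in which they were high. K09C6.9 had 24, 31 and 24 counts in the LIN41 inputs and 0, 7 and 2 in the SART-3 inputs, which is 12, 37.6 and 25 CPM against 0, 5.06 and 1.41 CPM (log2 3.54, SE 0.50, adjusted p = 0.0847). scl-6 was at 25.5, 41.2 and 17.7 CPM against 6.42, 7.95 and 4.23 CPM (log2 2.14, SE 0.31). Here scl-6 was higher and its relative scl-2 lower in the LIN41 inputs, although neither passed the test.

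C36C5.14 stands in a stretch of chromosome V with 3 more genes that were higher in the LIN41 input. Along the chromosome in the WBcel235 annotation, exh-1, C36C5.12, C36C5.14 and C36C5.15 are the only genes with enough counts to be tested between F02C9.1 and lag-2. exh-1 had a log2 difference of 1.03 (SE 0.21), C36C5.12 of 1.70 (SE 0.25) and C36C5.15 of 1.64 (SE 0.27), with adjusted p from 0.0923 to 0.180. F02C9.1 and lag-2, at its ends, had values of 0.11 (SE 0.37) and 0.20 (SE 0.55), from 7 to 17 and 4 to 15 counts per input. Beyond F02C9.1, the next gene, irld-3, was at 0.63 (SE 0.24) and higher in all 3 replicates, so the end on that side is uncertain. The other counted genes in that stretch had 3 counts or fewer in any input. These neighbours were picked after their values were seen.

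**Figure D3:**
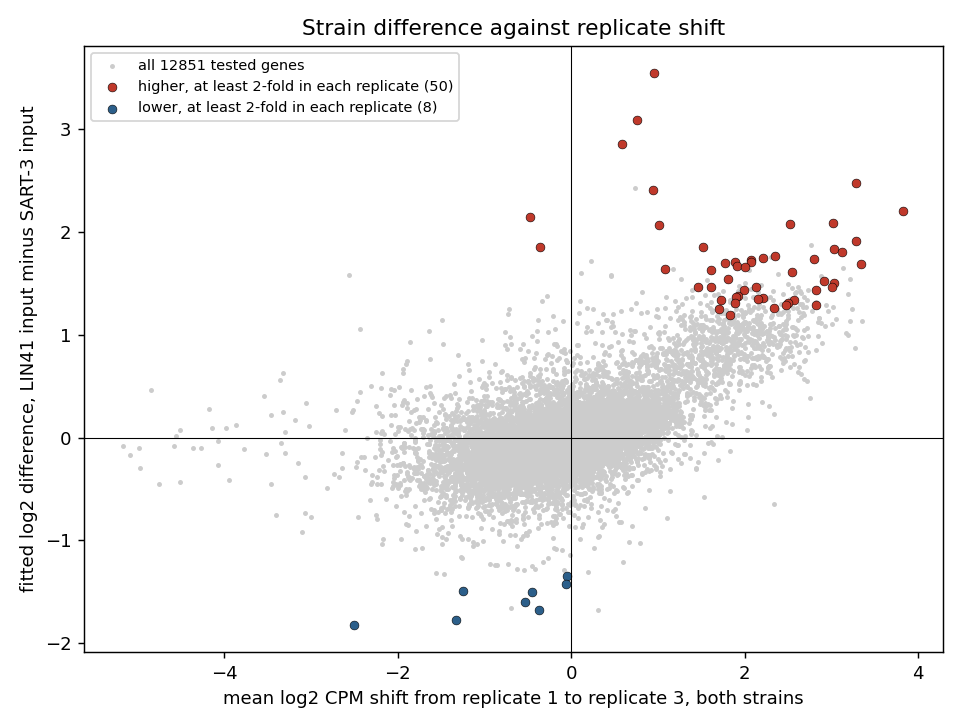
Fitted log2 difference between the strains against the mean log2 CPM shift from replicate 1 to replicate 3, for all 12851 tested genes (grey) and for those with at least a 2-fold difference in each replicate. The cloud bends upwards beyond a shift of 1, where 44 of the 50 higher genes lie, whereas the 8 lower genes lie at a shift of 0 or less.

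The strain difference itself was not the same in the 3 replicates. Across the 12851 genes, which are not independent replicates, the log2 differences of replicates 2 and 3 had a Pearson correlation of 0.58, and those of replicate 1 had 0.10 with replicate 2 and 0.08 with replicate 3. The cytosolic ribosomal protein genes show this most plainly. All 80 were tested, and 79 were lower in the LIN41 input in replicate 1, while all 80 were higher in replicates 2 and 3, with medians of −0.66, 0.68 and 0.51. Together they summed to 16770, 38290 and 32760 CPM in the LIN41 inputs and to 26460, 23990 and 23080 CPM in the SART-3 inputs. rpl-42, a low-count gene, was the exception of replicate 1, at 5.49, 9.70 and 25.0 CPM against 1.61, 2.89 and 13.4 CPM. rps-28 (log2 0.22, SE 0.24) stands for the rest. Without replicate 1, 79 of 80 were called higher, where 13.9% of all genes were called higher and 10.8% lower.

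A negative median in replicate 1 and positive ones in replicates 2 and 3 were seen in further groups. Mitochondrial respiration genes had medians of −0.44, 0.36 and 0.31, epidermal antimicrobial peptide genes of −0.41, 0.58 and 0.33, histone genes, counted as 20 tested identifiers of 70, of −0.30, 0.30 and 0.33, and spliceosome and SR protein genes of −0.19, 0.27 and 0.17. None of their members passed the test. The members of lowest p were cyc-1 (log2 −0.26) and mev-1 (0.18) of the respiratory chain, fipr-17 (1.54) and nlp-26 (0.70) of the antimicrobial peptides, the histone genes his-70 (0.75) and his-61 (0.42), and rsp-4 (0.23) of the SR proteins.

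The heterochronic genes went the other way. The 17 heterochronic genes had medians of 0.33, −0.41 and −0.38, with 14 of them higher in the LIN41 input in replicate 1, and 2 and 3 of them in replicates 2 and 3. daf-12, a nuclear receptor gene of that pathway, was at 68.4, 12.1 and 13.6 CPM in the LIN41 inputs and at 62.6, 31.1 and 26.8 CPM in the SART-3 inputs (log2 −0.51, SE 0.31). Patched-related genes, which code for membrane proteins of epidermal secretion and molting, had medians of 0.11, −0.33 and −0.51, but with thinned counts the value of replicate 1 was −0.0007, and 7 of 25 were lower and none higher in all 3 replicates (ptr-1 with log2 −0.42 and ptr-13 with −0.85). Regulators of the seam and epidermis had a median near 0 in replicate 1 (0.02, and −0.035 with the ceiling correction described below) and of −0.46 and −0.79 in replicates 2 and 3. In all 3 replicates 6 of 14 were lower (egl-18 with log2 −0.68 and ceh-16 with −0.63) and none higher, where 13.1% of all tested genes were lower and 16.3% higher. None of these genes passed.

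The median difference also followed the number of counts per base of coding length, in opposite directions in replicate 1 and in replicates 2 and 3. For 566 genes under 0.01 counts per base, it was 0.29, −0.10 and −0.13, and for 493 genes at 0.4 counts per base or more it was −0.49, 0.51 and 0.42. In each replicate the deeper library was thus the lower one for the mRNAs with most counts per base. The authors collapsed reads with the same 5′ end, so that a position could add at most 1 read, and up to 443 genes in a library had more than 0.5 counts per base. After correction of the counts for that ceiling, the medians of the most densely counted genes were −0.47, 0.42 and 0.39. With all libraries thinned to the lowest total, they were −0.53, 0.51 and 0.43, and those of the ribosomal protein genes were −0.70, 0.67 and 0.51. Thinning makes the totals equal, but it acts on counts already collapsed. The part in these medians of the depth before collapsing was not tested.

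**Figure D4:**
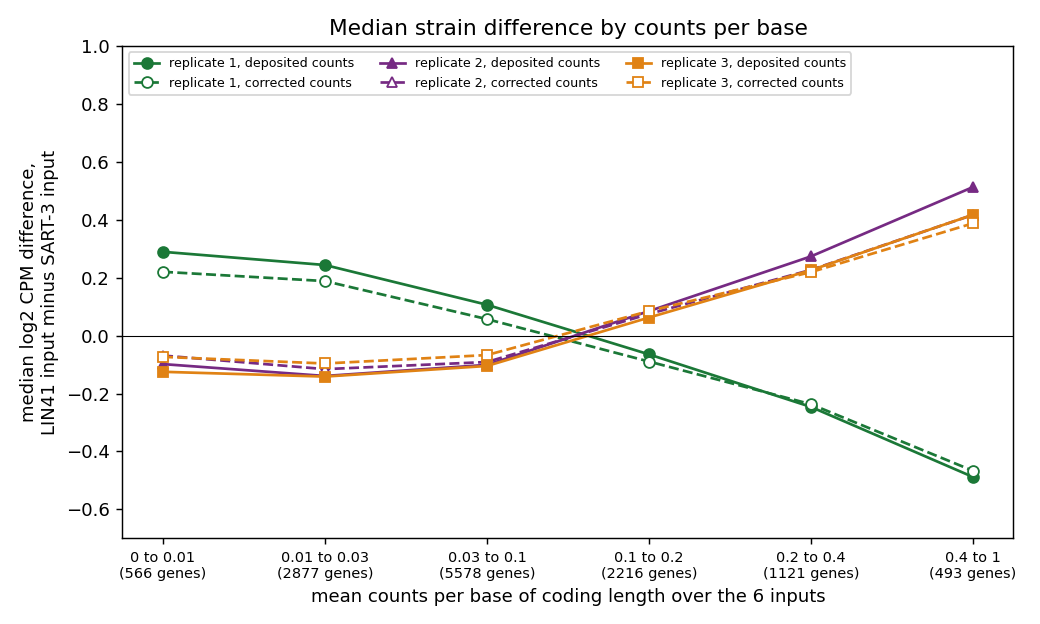
Median log2 CPM difference (LIN41 input minus SART-3 input) of genes grouped by mean counts per base of coding length, for each replicate, from the deposited counts (filled) and from counts corrected for the ceiling set by collapsing reads (open). Replicate 1 runs from 0.29 down to −0.49, and replicates 2 and 3 from −0.10 and −0.13 up to 0.51 and 0.42.

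With corrected counts the medians of the sperm genes were 1.16, 1.04 and 0.79, and those of the adult-specific collagens were 0.90, 1.89 and 1.66, so both groups were above 0 in all 3 replicates. With thinned counts they were 1.03, 0.86 and 0.76 for the sperm genes and 0.76, 1.58 and 1.42 for the collagens. With the corrected counts, edgeR called 33 genes higher and 3 lower, and rol-1 and col-138 were among the 33. Among these calls were 3 of the 6 adult-specific collagens and 6 of the 35 sperm genes. Of all tested genes, 0.257% were called higher there. With all 12 libraries in a fit, 5 of 6 and 14 of 35 were called higher, beside 1.26% of all tested genes. That fit takes the input and IP of a lysate as independent libraries, which they are not. The counts called were 5 and 2 with DESeq2, beside 0.156%, and 5 and 19 with the likelihood ratio test, beside 2.47%. With limma-voom none was called.

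**Figure D5:**
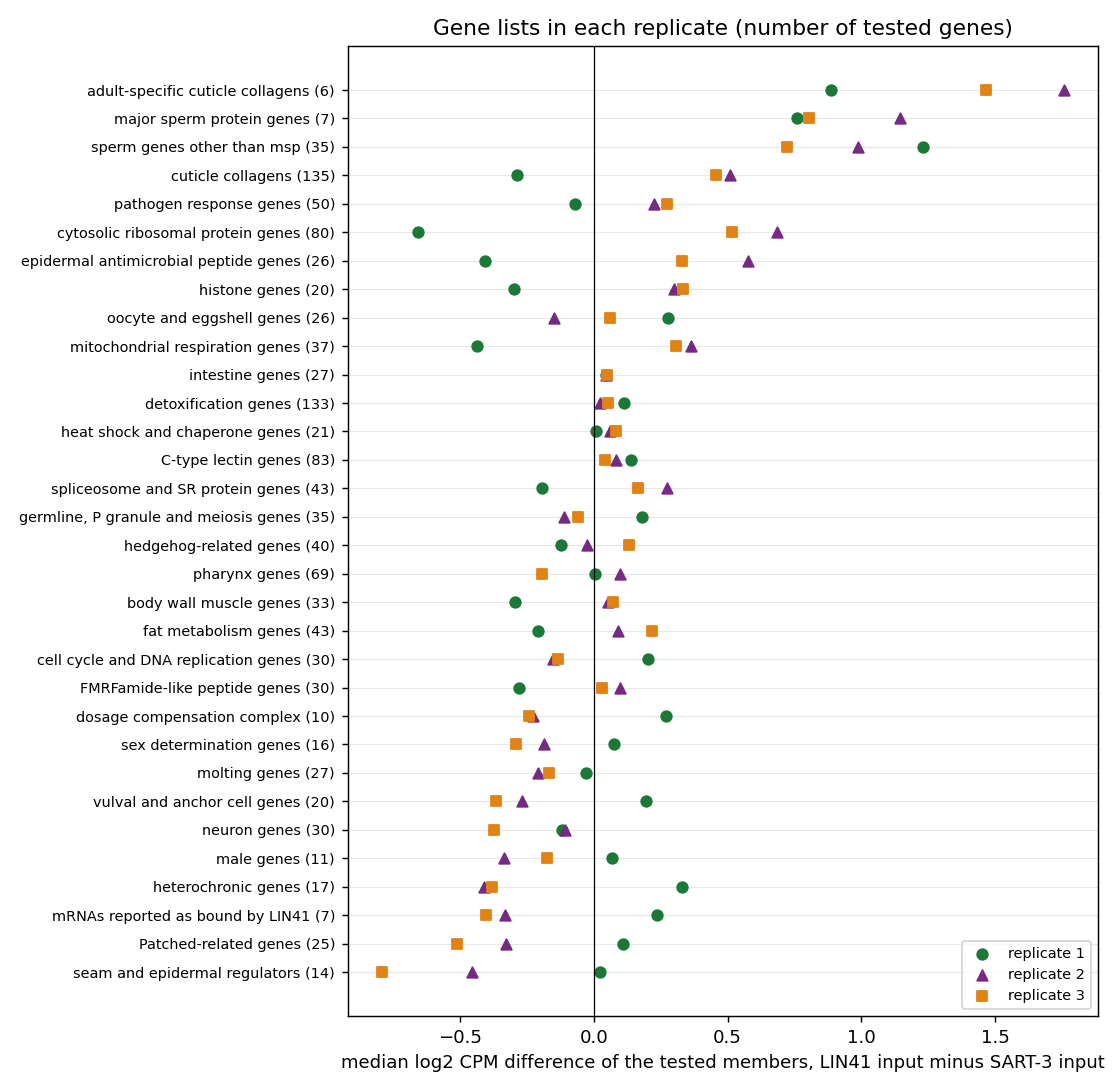
Median log2 CPM difference (LIN41 input minus SART-3 input) of each gene list with at least 5 tested members, by replicate, ordered by the median fitted value. Adult-specific collagens, msp genes and other sperm genes lie above 0.7 in all 3 replicates, and the ribosomal protein, cuticle collagen and mitochondrial lists lie below 0 in replicate 1 only.

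The mRNAs that the study names as bound by LIN41 were examined because a level that differs between the inputs would bear on any ratio to them. The study chose them on libraries that include these inputs, so the list is no independent evidence. None of the 7 passed with all 3 replicates. Without replicate 1, 2 of them (mab-10 and dmd-3) were called lower, where 10.8% of all tested genes were. That fit of 4 libraries leaves 1 residual degree of freedom. lin-29, which codes for the transcription factor at the end of the heterochronic pathway, was at 84.4, 72.7 and 40.7 CPM in the LIN41 inputs and at 71.5, 89.6 and 54.3 CPM in the SART-3 inputs (log2 −0.13, SE 0.18, adjusted p = 0.914). mab-10, whose product is a cofactor of LIN-29, was at 70.9, 43.6 and 29.2 CPM against 45, 58.5 and 62.8 CPM (log2 −0.22, SE 0.31), and without replicate 1 its log2 difference was −0.75 (adjusted p = 0.0021). These genes were higher in the LIN41 input in replicate 1 and lower in replicates 2 and 3.

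mab-3 and dmd-3 code for DM-domain transcription factors of male development. mab-3 was at 58.4, 54.5 and 85.6 CPM in the LIN41 inputs and at 54.6, 78.7 and 96.7 CPM in the SART-3 inputs (log2 −0.19, SE 0.17). dmd-3 was at 21.5, 26.7 and 18.8 CPM against 9.64, 34 and 42.3 CPM (log2 −0.20, SE 0.40), and without replicate 1 its log2 difference was −0.77 (adjusted p = 0.0159). The groups overlapped for both. F18C5.10 was at 79.4, 29.1 and 16.7 CPM against 73.1, 36.1 and 34.6 CPM (log2 −0.30, SE 0.25). C31H5.5 was at 31.4, 21.8 and 25.0 CPM against 41, 28.2 and 28.9 CPM (log2 −0.32, SE 0.22), and it was the only one of the 7 that was lower in every replicate.

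lin-41 mRNA was higher in the LIN41 input in every replicate, at 147, 23 and 16.7 CPM against 46.6, 18.1 and 12 CPM (log2 1.06, SE 0.30, adjusted p = 0.285). The counts do not separate the mRNA of the transgene from that of the lin-41 locus. The difference was largest in replicate 1, and without that replicate the log2 value was 0.40 (adjusted p = 0.448). Without replicate 3 it was 1.18 and passed (adjusted p = 0.0374), where 0.615% of all genes were called higher. The level was lowest in replicate 3 in both strains. sart-3 mRNA, in which transgene and locus are likewise counted together, was lower in the LIN41 inputs without overlap, at 93.8, 73.9 and 66.8 CPM against 110, 105.5 and 111.5 CPM (log2 −0.48, SE 0.15, adjusted p = 0.352). dpy-30, whose promoter drives the control transgene, had a log2 difference of 0.16 (SE 0.20), and xrn-2, whose 3′ UTR it carries, of 0.11 (SE 0.14). None of these genes passed with all 3 replicates. Without replicate 1, sart-3 was called lower (log2 −0.63, adjusted p = 0.00033), where 10.8% of all genes were. In that fit dpy-30 was called higher (log2 0.46, adjusted p = 0.00053), where 13.9% of all genes were.

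Among epidermal groups, molting genes were lower in all 3 replicates in 9 of 27 tested and higher in none. Beside them, 13.1% of all tested genes were lower and 16.3% higher in all 3 replicates. ptr-23 (log2 −0.34, SE 0.14) and let-653 (log2 −0.27, SE 0.14) were lower without overlap of the groups. Of 40 hedgehog-related genes tested, 2 were higher and 6 lower in all 3 replicates. Of these, wrt-8 had a log2 difference of −1.15 (SE 0.35) without overlap and grl-3 of −0.75 (SE 0.32) with overlap. Vulval and anchor cell genes were lower in all 3 replicates in 7 of 20 and higher in 1, with hlh-2 at log2 −0.76 (SE 0.32) and egl-38 at −0.93 (SE 0.46).

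Other cell types and organs had fitted medians from −0.19 to 0.08, but some differed between replicates. In replicates 1, 2 and 3 the medians were −0.12, −0.11 and −0.37 for neuron genes and −0.28, 0.10 and 0.03 for FMRFamide-like peptide genes. Body wall muscle genes had −0.30, 0.05 and 0.07, pharynx genes 0.004, 0.10 and −0.19, and intestine genes 0.05, 0.05 and 0.05. For the counts that follow, the shares over all tested genes were 16.3% higher and 13.1% lower in all 3 replicates. Neuron genes were lower in all 3 replicates in 11 of 30 and higher in 1, unc-119, a gene of axon organisation, which was at 36.4, 27.9 and 24 CPM in the LIN41 inputs and at 17.7, 17.3 and 14.8 CPM in the SART-3 inputs (log2 0.82, SE 0.25, adjusted p = 0.321). The groups did not overlap for unc-119, in contrast to ric-4, a synaptic gene (log2 −0.36, SE 0.16). FMRFamide-like peptide genes were lower in all 3 replicates in 8 of 30 and higher in none, with flp-3 at log2 −0.53 and flp-22 at −0.27. Pharynx genes were higher in 7 and lower in 11 of 69. Of lowest p were phat-6 (log2 0.75, SE 0.18), higher in each replicate, and pqn-75 (1.58, SE 0.44), lower in replicate 3. Body wall muscle genes were lower in 5 of 33 and higher in none, with mlc-1 at −0.37. The fitted value of pat-2 was −0.31, but it was not lower in replicate 1. Intestine genes were higher in 2 and lower in 1 of 27, the lower one being mtl-1 (−0.66). For pgp-1 it was −0.36, again without a lower value in replicate 1.

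The lists of germline, cell cycle, sex determination and dosage compensation genes had fitted medians from −0.10 to 0.02. Their medians by replicate changed sign. In replicates 1, 2 and 3 they were 0.18, −0.11 and −0.06 for germline genes and 0.20, −0.15 and −0.13 for cell cycle genes. They were 0.08, −0.19 and −0.29 for sex determination genes and 0.27, −0.23 and −0.24 for the dosage compensation complex. Over all tested genes, 16.3% were higher and 13.1% lower in all 3 replicates. Germline, P granule and meiosis genes were higher in all 3 replicates in 8 of 35 and lower in 4, with fbf-2 at log2 −0.52 and gld-3 at 0.36, both of them regulators of germline mRNAs. Cell cycle and DNA replication genes were higher in 7 and lower in 5 of 30. Of lowest p were the cyclin genes cyb-1 (0.42), which was not higher in replicate 2, and cyb-2.2 (0.47). Sex determination genes were lower in 4 of 16 and higher in none, with sel-10 at −0.41 and tra-1 at −0.30. Of the 10 genes of the dosage compensation complex, 1 was lower in all 3 replicates. The 2 of lowest p, dpy-21 (−0.23) and dpy-27 (−0.18), were higher in replicate 1.

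For immune, stress and metabolic groups, the members named were those of lowest p in their list. The shares over all tested genes were 16.3% higher and 13.1% lower in all 3 replicates. C-type lectin genes were higher in all 3 replicates in 20 and lower in 9 of 83, with clec-197 (log2 1.83, SE 0.42) and clec-79 (1.25, SE 0.31) having the lowest p-values. Pathogen response genes were higher in 7 and lower in 3 of 50, and irg-5 was higher without overlap (log2 0.67, SE 0.14). Detoxification genes were higher in 28 and lower in 9 of 133, with the glucuronosyltransferase genes ugt-26 at 0.69 and ugt-66 at −0.55. Heat shock and chaperone genes were higher in 2 and lower in 1 of 21. Here hsp-12.1 (0.32, SE 0.25) and hsf-1 (−0.18, SE 0.15) changed sign between replicates. Fat metabolism genes, which include far-8 and far-3, were higher in 2 and lower in 10 of 43. None of these genes passed.

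The share of genes higher in all 3 replicates was smaller on the X chromosome than on any autosome. Of 1711 tested genes on X, 131 (7.66%) were higher in the LIN41 input in all 3 replicates, against 14.7% to 21.3% on the autosomes, and 16.7% were lower, against 11% to 14.5%. The median log2 difference of X genes was 0.04 in replicate 1, within the autosomal range of 0.0049 to 0.056. In replicates 2 and 3 it was −0.13 and −0.16, below the autosomal ranges of 0.015 to 0.051 and −0.0023 to 0.043. These differences between chromosomes were not tested. None of the tested sperm genes of the lists is on X, and of the 50 genes at least 2-fold higher, 1 is (col-175). The part of sperm genes in the difference between chromosomes was not tested.

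The IP libraries of the same lysates gave a second reading of the strain difference, from the same worms and hence not independent of the inputs. Between LIN41 IP and SART-3 IP, 46 of 8726 tested genes were called higher (0.527%) and 7 lower (0.0802%). Of 8721 genes tested in both comparisons, 67.2% had the same sign. rol-1 and col-138 were called higher between the IPs as well, with log2 differences of 2.13 (adjusted p = 1.87e-05) and 1.86. In IP replicate 1, however, the strains were close, with rol-1 at 17 CPM in the LIN41 IP and 15.8 in the SART-3 IP, and col-138 at 46.8 and 34.2 CPM. The median difference of the pair was 0.24, 1.89 and 2.17 in replicates 1, 2 and 3. All 11 of the 12 top higher genes that were tested between the IPs were higher there, 8 of them called, and all 7 of the 12 top lower genes that were tested were lower there, 4 of them called.

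far-8 (log2 1.00, adjusted p = 0.0113) and far-3 (log2 −1.55, adjusted p = 0.00486) were called between the IPs in the same directions. So were 5 of 5 adult-specific collagens, all higher, and 2 of 26 sperm genes, with all 26 higher in sign. Ribosomal protein genes had medians of 0.60, 0.58 and 0.14 between the IPs in replicates 1, 2 and 3, so that the lower value of replicate 1 was seen in the inputs only. Protein binding and mRNA level cannot be told apart in the IP libraries.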

How the data were processed

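RNA was extracted from aliquots of the lysates used for the IPs, and libraries were made with a TruSeq Stranded mRNA kit. According to the methods and labels, the authors kept 1 read for each 5′ end position, used QuasR for alignment and counted overlaps with WormBase exons. The methods name the ce6 assembly and the submitters' processing notes ce10 and SAMtools; use of strand in counting is not given in the sources used here. The deposited values are raw counts per gene, with a gene length that is a multiple of 3 for 96.6% of genes (coding length). Symbols matched 18778 of 20182 identifiers (93%) in the WBcel235 annotation, used only for names, chromosomes and neighbours.

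The count test was run with edgeR 4.0.16 under R 4.3.3 (TMM factors, quasi-likelihood test with terms for replicate number and strain, two-sided, Benjamini-Hochberg adjustment over all 12851 genes). The methods name a likelihood ratio test, which was an alternative here. CPM are counts scaled to a library total of 1000000. For differences per replicate, a prior count of 2 was added before taking log2 CPM. "Higher" or "lower in all 3 replicates" refers to their sign. SEs of fitted values are those implied by the F statistic. The biological coefficient of variation was 0.156. Ceiling-corrected counts are −L ln(1 − c/L) for c counts over L bases, with c limited to 99% of L. Deviations from the group mean correlated at the same replicate number across 12148 genes (Pearson r 0.69, 0.41 and 0.71), so replicate numbers were taken as pairs. The methods name a term for the batch of sequencing, and the labels give no batch. No pair of libraries agreed within sampling noise.

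The gene lists, members and tests were chosen with earlier results of these data known. Genes were named by these rules: the mRNAs the study names as bound by LIN41 with those whose sequences the transgenes use, 12 genes a direction with the lowest p and 1 sign in all replicates, and up to 4 called members of each list or otherwise the 2 of lowest p. The tests were checked on simulated counts with no replicate effect and the same strain difference in every replicate. That check does not cover replicates that disagree, as those here did. Alternatives were other factors (RLE, upper quartile, none), DESeq2 1.42.0, limma-voom 3.58.1 with and without quality weights, other filters, thinned counts, other prior counts, no replicate term, all 12 libraries, and leaving out each replicate or library. The ceiling correction and the fit without a replicate term or replicate 1 were added after seeing the data.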

Additional observations from a re-analysis of the deposited data

How the results depend on the processing

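The main fit with the replicate block called 2 genes higher and 0 lower. The other counts of genes higher and lower, in that order, were 0 and 0 with no replicate block (82 and 48 at an unadjusted p under 0.05), with total counts only, with limma-voom and with 10 counts in all 6 libraries; 1 and 0 with RLE factors, upper-quartile factors or filterByExpr; 8 and 1 with thinned counts; 20 and 2 with DESeq2; 29 and 3 at an adjusted p under 0.1; 33 and 3 with the ceiling correction; 1.0e+02 (0.573% of the 18154 genes tested there) and 9 without a filter; 162 and 11 with all 12 libraries; 318 and 31 with the likelihood ratio test; 659 and 241 with voom quality weights; and 372 and 174 with no replicate block and both replicate 1 inputs left out. Leaving out a replicate number or a library gave 0 to 1782 genes higher and 0 to 1386 lower. The highest counts were without replicate 1, where 4 libraries leave 1 residual degree of freedom. Without replicate 3 they were 79 and 3, and without replicate 2 or any single library (no replicate block) 0 and 0. rol-1 and col-138 were both among the calls without replicate 1 and with DESeq2, the likelihood ratio test, quality weights and the ceiling correction.

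The sign of some values that did not pass turned when replicates or libraries were left out. The ranges of their log2 differences were −1.07 to 0.28 for F18C5.10, −2.01 to 0.41 for R10D12.1, −0.013 to 0.43 for cbd-1, −1.63 to 0.18 for daf-12, −0.78 to 0.30 for dmd-3, −0.94 to 0.22 for dpy-21, −0.52 to 0.027 for dpy-27, −0.018 to 0.54 for dpy-30, −3.11 to 1.00 for grl-3, −0.093 to 0.79 for his-61, −0.037 to 0.84 for hsp-12.1, −0.35 to 0.12 for lin-29, −0.36 to 2.09 for lin-41, −0.75 to 0.13 for mab-10, −0.019 to 0.61 for rps-28, −0.68 to 0.97 for vit-6 and −0.0044 to 0.23 for xrn-2. With thinned counts vit-6 was at −0.086, and without a block and replicate 1 cbd-1 was at −0.012. The cause was not tested. Among all values recomputed for single genes, 1814 kept their direction and side of the threshold, 247 came to pass it, 26 ceased to pass it (rol-1 and col-138) and 37 turned sign. The quality weights of limma-voom were 0.323 for LIN41 input 1 and 0.347 for SART-3 input 1, and 1.59 to 1.80 for the other 4 inputs.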
